A study of Rattus norvegicus with 24 samples.

Results

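The comparison described here was the response of rat blood to lipopolysaccharide (LPS) in animals fed G2, an oat beta-glucan of low molecular weight. It held 8 of the 24 two-color microarrays of the series: 4 arrays of the LPS-G2 group (diet enriched with beta-glukan 2, GII in the labels, with LPS injection) and 4 of the C-G2 group (the same diet, no LPS). Members were taken by their titles. All rats were male Sprague Dawley, an outbred stock, aged 8 weeks at the start and fed for 6 weeks. LPS was injected into the tail vein at 10 mg per kg of body weight, more than once, and control rats received saline on the same schedule. Blood was drawn by cardiac puncture at the end of feeding, so whole blood of the treated and control rats was compared at 1 time. The other 16 arrays came from the control diet without beta-glucan (C-G0 and LPS-G0) and from G1, the beta-glucan of high molecular weight (C-G1 and LPS-G1). Each array carried RNA of a rat against a common reference of pooled blood RNA. The sources differ on its makeup: the labels name all rats, the methods a few rats of each group whose RNA was not on the arrays otherwise. The labels call the arrays of a group biological replicates.

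LPS is a component of the outer membrane of Gram-negative bacteria. It is sensed by Toll-like receptor 4 with its co-receptors, and the adaptor proteins behind the receptor switch on NF-kB, inflammatory cytokines and, through a second branch, interferons and the genes they induce. Beta-glucans are glucose polymers of cereal and fungal cell walls that are bound by the lectin receptor dectin, encoded by *Clec7a*, whose signal runs through the kinase Syk and the adaptor Card9. In blood, these responses are read in neutrophils, monocytes and lymphocytes, over a large background of red cell transcripts.

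A value is the log2 ratio of rat RNA over the reference, and a fold change is LPS-G2 minus C-G2 on that scale. The labels put the rat RNA in Cy3, while the methods of the study name Cy5. All directions given here follow the labels. Within groups, the median SD between arrays over 7074 probes was 0.35 (log2) for the Cy3 signal and 0.20 for the Cy5 signal, and 96.7% of these probes varied more in Cy3. Of 30367 distinct probes, 9434 were tested, namely those whose Cy3 signal the scanner software flagged as well above background on each of the 4 arrays of C-G2 or of LPS-G2. All 8 arrays met this for 8474 of them. They represented 6720 named genes. Between 9769 and 14384 probes per array were above background in the C-G2 group, and between 10276 and 12737 in the LPS-G2 group. The number of arrays limits the precision.

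No probe changed between LPS-G2 and C-G2 at an adjusted p under 0.05 and at least 2-fold, which is 0% of the 9434 tested probes (limma, Benjamini-Hochberg). Without the fold limit the count was also 0, and the smallest adjusted p was 0.9999. An unadjusted p under 0.05 was reached by 95 probes (1.01%), 57 of them (0.604%) higher and 38 (0.403%) lower in LPS-G2. Where nothing differs, this limit passes a share of 0.05 of probes on average, so the count was below that share. Only 3 probes (0.0318%) passed this unadjusted limit with at least a 2-fold difference, those of *Slc27a2*, *Kmt5a* and *Eefsec*. The 2 groups did not overlap for 105 probes (1.11%), with LPS-G2 above C-G2 for 57 and below it for 48. Under a random arrangement of the arrays such a separation has a probability of 0.0286, so this share was also below its reference. The fold changes were small: 80% of them lay between -0.20 and 0.24 on the log2 scale, the median was 0.02, and 15 probes of 13 genes reached 2-fold in either direction, 10 higher and 5 lower. The median standard error was 0.21, and for 8798 probes (93.3%) the 95% confidence interval lay within 2-fold in both directions. For these probes a change over 2-fold was therefore outside the interval.

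**Figure D1:**
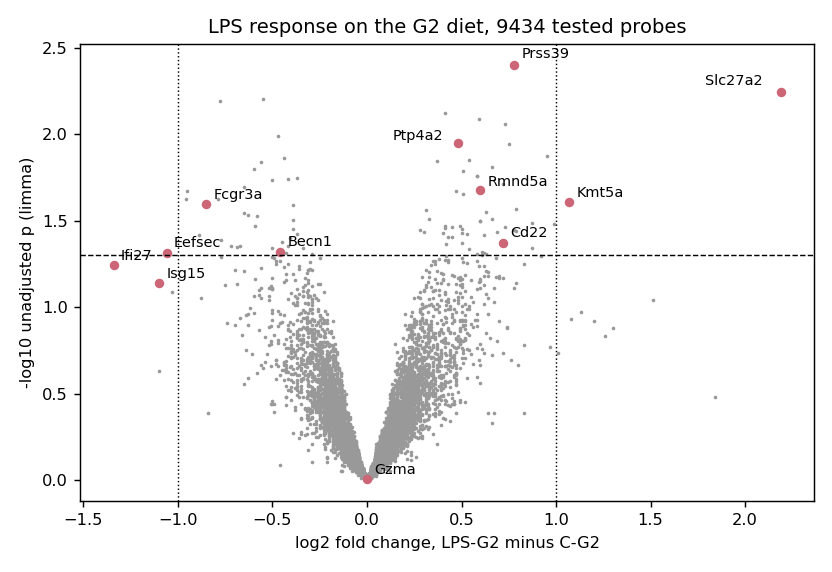
Every tested probe by its log2 fold change (LPS-G2 minus C-G2) and the -log10 of its unadjusted p from limma. The dashed line marks the unadjusted limit of 0.05, the dotted lines mark 2-fold, and named genes are in red. Of the 9434 probes, 3 lie above the dashed line and beyond a dotted one.

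The largest difference past the unadjusted limit was that of *Slc27a2*, which encodes a very long-chain acyl-CoA synthetase that also takes up fatty acids. Its values in C-G2 were -2.92, -2.94, -0.62 and -1.90, and in LPS-G2 -0.07, 0.70, 0.39 and -0.64. The groups overlapped only at C-G2 replicate 3 and LPS-G2 replicate 4. The fold change was 2.19 (SE 0.72; adjusted p = 0.9999, limma). The probe (60 bases, chr3:114114177-114114236, build rn4) was well above background on 1 of 4 C-G2 arrays and on all 4 LPS-G2 arrays, so it entered the test only through the group where it was high and the low values of C-G2 are near background. Within slides 1, 2 and 3 the difference was 2.85, 3.63 and 1.14, and with another background correction (normexp and loess) the fold change was 0.81.

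*Kmt5a*, a histone methyltransferase, had values of -0.78, 0.49, -1.01 and -1.45 in C-G2 and of 0.96, 0.34, -0.01 and 0.24 in LPS-G2. C-G2 replicate 2 lay among the LPS-G2 arrays and the other 3 lay below them. The fold change was 1.07 (SE 0.45; adjusted p = 0.9999, limma), and a second probe of the gene gave 0.99. *Eefsec*, an elongation factor that inserts selenocysteine into selenoproteins, had values of 1.66, -0.64, -0.32 and 0.70 in C-G2 and of -0.97, -0.43, -0.93 and -0.53 in LPS-G2. Its fold change of -1.06 (SE 0.51; adjusted p = 0.9999, limma) depended on the first control array and was -0.63 without C-G2 replicate 1.

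Genes of LPS sensing showed no difference past even the unadjusted limit. Of 25 listed genes of LPS recognition and Toll-like receptor adaptors, 8 were tested, and none had an unadjusted p under 0.05, against 0.938% of all 6720 tested genes. *Tlr4*, *Cd14*, *Ly96* and *Lbp*, which form the LPS receptor and deliver its ligand, were not well above background on all arrays of either group and were not tested. The median fold change of the 8 genes was 0.06, that of all tested genes 0.02, and the range ran from -0.18 for *Tollip*, an inhibitory adaptor, to 0.21 for *Irak1*, the kinase recruited by the adaptor *Myd88*. *Myd88* itself had values of -0.35, 0.49, -0.75 and 0.03 in C-G2 and of -0.13, 0.05, -0.25 and -0.16 in LPS-G2, and its fold change was 0.02. The confidence intervals of all 8 genes lay within 2-fold.

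The same held one step further down. Of 12 tested genes of NF-kB subunits and inhibitors, 0 passed the unadjusted limit (limma), with a median of -0.03 and a range from -0.13 for *Nfkb1* to 0.34 for *Map3k7*, the kinase TAK1 upstream of NF-kB. *Nfkbia*, the inhibitor that NF-kB itself induces, had values of -0.03, 0.20, 0.08 and 0.17 in C-G2 and of 0.53, -0.06, -0.53 and 0.10 in LPS-G2. The LPS-G2 arrays spread around the control arrays on both sides, and the fold change was -0.09.

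Of 41 listed cytokines, chemokines and their receptors, 23 were tested and 0 passed the unadjusted limit (limma). Their median fold change was 0.05, from -0.25 for the receptor *Il6r* to 0.44 for *Il1b*. *Il1b*, a principal cytokine of the LPS response, had values of -1.01, 0.87, -0.83 and 0.04 in C-G2 and of 0.31, 0.38, 0.68 and -0.54 in LPS-G2. The highest and the lowest value were both control arrays, and the interval of the difference was -0.26 to 1.14. *Tnf*, the other early cytokine, had values of 0.04, 0.42, -1.82 and 0.22 in C-G2 and of -0.51, -0.58, -0.27 and 0.40 in LPS-G2, with a fold change of 0.05. *Il6* and *Cxcl2* were not above background on any of the arrays and gave no value.

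The receptor and kinase of the beta-glucan pathway were measured too. Of 13 tested genes of beta-glucan receptors and Syk-Card9 signalling, 0 passed the unadjusted limit (limma), and the median was -0.06. *Clec7a* had values of 0.11, 0.49, -0.21 and -0.15 in C-G2 and of 0.21, 0.05, 0.63 and -0.91 in LPS-G2, so that the LPS-G2 arrays enclosed the controls. The fold changes of *Clec7a*, *Syk* and *Card9* were -0.06, 0.04 and -0.03. The lowest p values of this list belonged to the integrin subunit *Itgb2* (-0.28, SE 0.19) and to *Fcer1g*, the signalling chain of Fc receptors (-0.22, SE 0.17). The groups did not overlap for 1 of the 13 genes, *Malt1*, a protease of the Card9 complex (-0.41, SE 0.32), against 1.11% of all tested probes. A second probe of *Fcer1g* (-0.21, SE 0.16) did not overlap either. The 8 tested inflammasome genes had a median of -0.08, with *Casp1* at -0.21 and *Nek7* at -0.26, and *Nlrp3* was not detected on any array. For *Ncf1*, a cytosolic subunit of the phagocyte NADPH oxidase, the fold change was 0.29 (SE 0.23).

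Autophagy genes and lipid mediators were described because the study turned to them. Of 22 tested autophagy genes, 1 passed the unadjusted limit, against 0.938% of all tested genes. This was *Becn1*, the beclin that starts autophagosome formation, with values of 0.22, 0.03, -0.02 and 0.16 in C-G2 and of -0.54, 0.32, -0.84 and -0.36 in LPS-G2. LPS-G2 replicate 2 was the highest of all 8 arrays, and the other 3 were below every control. The fold change was -0.46 (SE 0.22; adjusted p = 0.9999, limma), but the probe was well above background on only 2 of the 4 LPS-G2 arrays and entered the test through C-G2, where it was higher. Of the other 21, 16 were positive and 5 negative, against 55.7% positive of all tested genes. *Optn*, an autophagy receptor, was at 0.38, and the median over the 22 genes was 0.08. *Atg10* was not tested, since it was not above background on all arrays of either group. The 9 tested prostaglandin and leukotriene genes had a median of 0.02, with the thromboxane receptor *Tbxa2r* at -0.24 and the leukotriene hydrolase *Lta4h* at 0.19, and *Ptgs2* and *Ptges* were not detected.

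Interferon-stimulated genes held the 2 lowest fold changes among all the listed genes, and both depended on few arrays. *Isg15*, a ubiquitin-like protein that interferon induces, had values of 2.66, -0.75, -0.31 and 0.06 in C-G2 and of -1.16, -0.46, -0.69 and -0.44 in LPS-G2. C-G2 replicate 1, a rat without LPS, stood far above every other array. The fold change was -1.10 (SE 0.59; adjusted p = 0.9999, limma; exact permutation p = 0.143) and became -0.36 without that array. *Ifi27*, another interferon-induced gene, had values of 2.23, 0.10, -0.76 and -0.31 in C-G2 and of -3.66, 0.14, -0.07 and -0.47 in LPS-G2. Here the first array of each group lay at opposite ends, and the other 6 lay between -0.76 and 0.14. Its fold change of -1.34 (SE 0.67; adjusted p = 0.9999, limma) was -0.70 without C-G2 replicate 1 and -0.45 without LPS-G2 replicate 1.

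The high level in C-G2 replicate 1 was shared by other genes of the pathway. On that array *Oas1a*, an antiviral oligoadenylate synthetase, was at 2.80, against -0.82 to -0.05 on the other C-G2 arrays. *Irf7*, the factor that amplifies interferon production, was at 2.06 there and between -0.92 and -0.21 on the others. *Irf9*, a subunit of the factor that interferon receptors activate, was at 1.38 there, against -0.28 to 0.37. Of the 21 tested interferon-stimulated genes, 11 had their highest value of the 8 arrays on C-G2 replicate 1, as did 19.5% of all tested probes. The mean over the 21 genes was 0.64 on that array and between -0.16 and 0.08 on the other C-G2 arrays, and it ran from -0.40 on LPS-G2 replicate 1 to 0.02 on LPS-G2 replicate 2. By fold change 17 of the 21 genes were negative and 4 positive, against 55.7% positive of all tested genes. The median was -0.13, and 0 passed the unadjusted limit (limma). Without C-G2 replicate 1, 14 were negative and the median was -0.11. Not every gene of the list was high there: *Mx1*, an antiviral GTPase, was at -0.13 on C-G2 replicate 1.

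Interferon acts on many of its target genes through a promoter motif called the interferon-stimulated response element, and the sequence in front of the tested interferon-stimulated genes was searched for it. The letters searched were GAAANNGAAA on both strands, in the 250 bases before each gene's start in a RefSeq table of build GRCr8. A match was present in 3.41% of all 33469 promoters. The table held 18 of the 21 tested interferon-stimulated genes, and 14 of the 18 (77.8%) had a match. The genes were listed as targets of interferon, so matches among them are a description. Overlapping matches were counted as 1 promoter, and *Isg15* was not in the table. The last 100 bases before the start are given below for 4 of the genes high on C-G2 replicate 1 (*Isg20* was at 0.95 there), 5′ to 3′ on the strand of the gene, with matches in capitals. They lie at chr12:41330366-41330465 (+) for *Oas1a*, chr6:128355212-128355311 (+) for *Ifi27*, chr1:205800024-205800123 (-) for *Irf7* and chr1:142239959-142240058 (+) for *Isg20*.
Oas1a: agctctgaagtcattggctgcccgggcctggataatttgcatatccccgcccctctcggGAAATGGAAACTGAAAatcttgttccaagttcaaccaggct
Ifi27: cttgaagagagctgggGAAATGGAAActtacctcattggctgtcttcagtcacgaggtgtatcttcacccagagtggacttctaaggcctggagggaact
Irf7: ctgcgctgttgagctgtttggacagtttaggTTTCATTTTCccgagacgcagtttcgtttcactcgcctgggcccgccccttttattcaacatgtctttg
Isg20: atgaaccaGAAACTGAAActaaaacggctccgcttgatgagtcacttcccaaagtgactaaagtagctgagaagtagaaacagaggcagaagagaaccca
The match began 41 and 35 bases before the start in *Oas1a*, 84 in *Ifi27*, 69 in *Irf7*, where it lay on the opposite strand, and 92 in *Isg20*. *Irf9*, at 1.38 on the same array, and *Mx1*, at -0.13, held no match in the 250 bases searched. *Rsad2* and *Ifi44* held a match and were at -0.59 and -0.17 on that array.

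**Figure D2:**
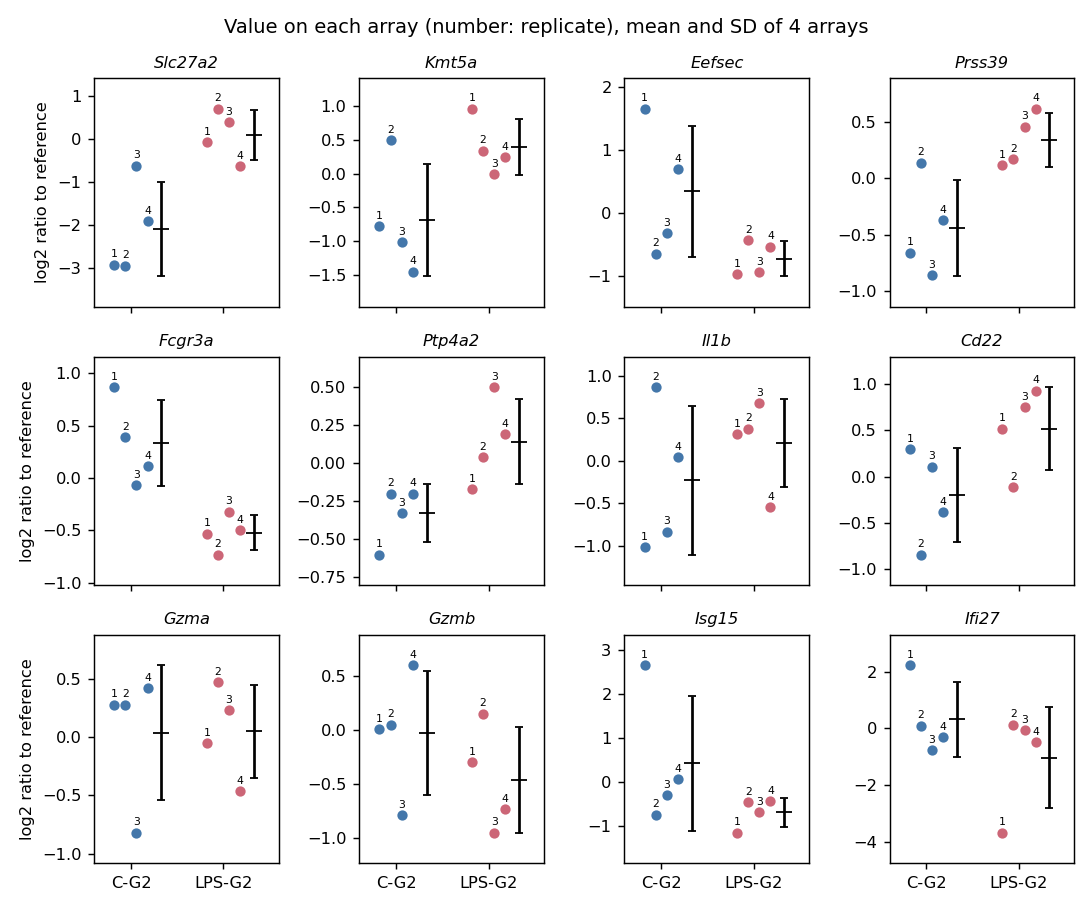
The log2 ratio to the reference of 12 genes on each C-G2 (blue) and LPS-G2 (red) array, numbered by replicate, with the mean and SD of the 4 arrays in black. The groups are separate for *Fcgr3a* and *Ptp4a2* and overlap for the other 10, and C-G2 replicate 1 stands at 2.66 for *Isg15* and 2.23 for *Ifi27*.

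Among the 10 tested neutrophil markers, the groups did not overlap for 1 gene, against 1.11% of all tested probes. They overlapped for every tested marker of the other cell types. These included 32 erythroid, 17 platelet, 15 cytotoxic, 13 T cell, 13 monocyte and 8 B cell genes. Over all these markers together, 1 separated gene is near the share of all probes. *Fcgr3a*, a low-affinity receptor for immunoglobulin G on neutrophils, natural killer cells and macrophages, had values of 0.87, 0.39, -0.07 and 0.11 in C-G2 and of -0.53, -0.73, -0.32 and -0.50 in LPS-G2. Every LPS-G2 array lay below every control. The fold change was -0.85 (SE 0.35, 95% confidence interval -1.58 to -0.11), with an adjusted p of 0.9999 (limma) and an exact two-sided permutation p of 0.0286, the smallest that 4 arrays against 4 can give. Other Fc receptor genes are similar in sequence, and whether the probe (chr13:86877181-86877240, rn4) also binds their transcripts was not tested. Within slides 1, 2 and 3 the difference was -1.40, -1.12 and -0.43. In whole blood, fewer cells of a type and less RNA per cell cannot be told apart.

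Of the 10 tested neutrophil markers, 1 passed the unadjusted limit (limma), *Fcgr3a*, against 0.938% of all tested genes. By fold change 7 of the 10 were negative, *Fcgr3a* included, and 3 positive, against 55.7% positive of all tested genes. *S100a8*, a subunit of calprotectin, an abundant protein of neutrophils, had values of -0.22, 1.02, -0.54 and 0.52 in C-G2 and of 0.60, -0.37, 0.88 and -0.17 in LPS-G2, and its fold change was 0.04. Its partner *S100a9* spread the same way, from -0.66 to 1.25 in C-G2 and from -0.54 to 1.03 in LPS-G2, with a fold change of -0.02. The mean over the 10 tested neutrophil markers ran from -0.39 to 0.72 in C-G2 and from -0.14 to 0.45 in LPS-G2, a wider range between arrays of a group than between the group means of 0.21 and 0.13. The median fold change of -0.03 became 0.21 without C-G2 replicate 2. That array held the highest value for 6 of the 10 genes, as it did for 13.7% of all tested probes.

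B cell markers had mostly positive fold changes. Of 8 tested B cell genes 7 had a positive fold change, against 55.7% of all tested genes. Of the 8, 1 passed the unadjusted limit, against 0.938% of all tested genes. This was *Cd22*, an inhibitory co-receptor of B cells, with values of 0.30, -0.84, 0.11 and -0.38 in C-G2 and of 0.52, -0.11, 0.75 and 0.93 in LPS-G2. LPS-G2 replicates 1, 3 and 4 were above all controls and replicate 2 was among them, with a fold change of 0.72 (SE 0.34; adjusted p = 0.9999, limma; exact permutation p = 0.0857). *Ms4a1*, which encodes the B cell antigen CD20, was at 0.27, *Cd79b*, a chain of the B cell receptor, at 0.10 and *Vpreb3*, another listed B cell gene, at -0.43. The mean over the 8 genes ran from -0.37 to 0.21 in C-G2 and from -0.40 to 0.32 in LPS-G2. C-G2 replicate 1 was the lowest array for 5 of them, as it was for 18.8% of all tested probes. Genes of MHC class II presentation, which B cells and monocytes use to show peptides to T cells, had a median fold change of 0.10. Of the 10 tested, 8 had a positive fold change, against 55.7% of all tested genes. The unadjusted limit was passed by 1 of the 10, *RT1-Bb*, against 0.938% of all tested genes. LPS-G2 replicate 4 was the highest array for 7 of the 10 (5.85% of all tested probes) and C-G2 replicate 1 the lowest for 5 (18.8%). The list means overlapped (-0.28 to 0.16 in C-G2, -0.05 to 0.43 in LPS-G2). *RT1-Bb*, a class II beta chain, had values of -0.27, -0.27, -0.14 and -0.29 in C-G2 and of 0.19, -0.14, -0.15 and 0.27 in LPS-G2. The spread of the controls was narrow, 2 LPS-G2 arrays lay above it, and the fold change was 0.28 (SE 0.13; adjusted p = 0.9999, limma; exact permutation p = 0.0571). *Ciita*, the activator of class II transcription, was at 0.25 (SE 0.18).

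T cells, monocytes and platelets gave no gene past the unadjusted limit in 13, 13 and 17 tested markers (limma), with medians of -0.05, -0.01 and -0.05. Of the 13 T cell genes 10 were negative and 3 positive, against 55.7% positive of all tested genes. They ran from *Tcf7*, a transcription factor of T cells, at -0.36 to *Il7r*, an interleukin receptor of resting T cells, at 0.34. *Cd3d* and *Cd3e*, chains of the T cell receptor complex, were at -0.15 and 0.05. Of the monocyte markers, *Adgre1*, the F4/80 antigen, was at -0.32 and the scavenger receptor *Cd36* at 0.40. *Tubb1*, the platelet tubulin, was at 0.52 and *F13a1*, a clotting factor subunit of platelets and monocytes, at -0.43.

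Red cell genes were more widely spread over the control arrays than over the LPS-G2 arrays. Over 32 tested erythroid genes the mean was 0.20, -0.27, 0.10 and -0.47 on the C-G2 arrays and 0.07, 0.09, 0.01 and 0.05 on the LPS-G2 arrays. The controls spanned 0.67 and the LPS-G2 arrays 0.07 on the log2 scale, and the LPS-G2 values lay inside the range of the controls. By fold change 25 of 32 were positive, against 55.7% of all tested genes, with a median of 0.15. Without C-G2 replicate 4, 17 were positive with a median of 0.04. The membrane skeleton gene *Sptb* was at 0.46 (SE 0.29). The globin genes *Hba-a1* and *Hbb*, the defining markers of red cells, were present on all arrays with fold changes of 0.08 and 0.17. Over all tested probes the SD was larger in C-G2 than in LPS-G2 for 67.6%, with medians of 0.29 and 0.21. Differences in spread were not tested.

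**Figure D3:**
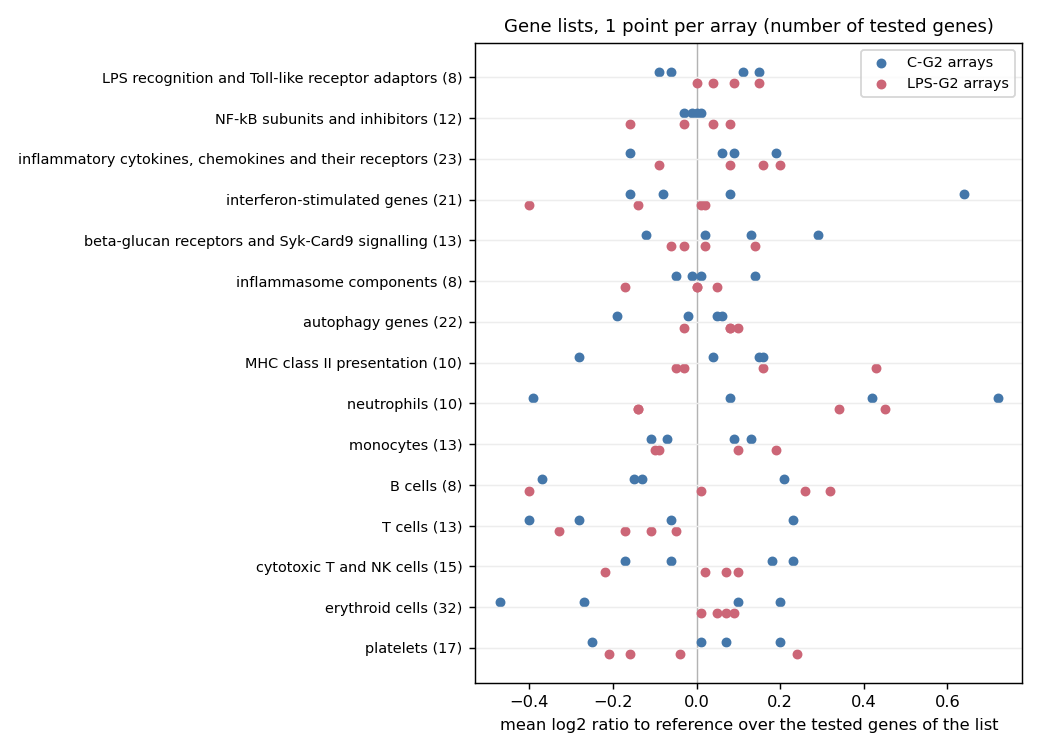
The mean log2 ratio over the tested genes of 15 lists, with 1 point per array, C-G2 in blue and LPS-G2 in red. The colors overlap in every list. C-G2 replicate 1 stands at 0.64 for interferon-stimulated genes, and the erythroid mean spans 0.67 in C-G2 and 0.07 in LPS-G2.

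Further lists behaved alike. Among 73 tested oxidative phosphorylation genes, 1 passed the unadjusted limit, *Ndufb8*, a subunit of respiratory complex I (0.30, SE 0.14; adjusted p = 0.9999, limma), a share near the 0.938% of all tested genes, and *Ndufa10* of the same complex was at 0.45. None passed among 79 ribosomal protein genes, 38 proteasome genes, 17 antioxidant enzymes, 17 genes of DNA replication and cell division, 13 immediate-early and glucocorticoid-responsive genes, 13 heat shock genes and 9 complement genes (limma). Of these lists, complement had the median farthest from 0, at 0.19. *Nr4a1*, an immediate-early nuclear receptor, had values of 0.08, 0.28, 0.28 and 0.23 in C-G2 and of 0.03, -0.03, -0.55 and -0.03 in LPS-G2. The groups did not overlap, as for 1.11% of all tested probes, and the fold change was -0.37 (SE 0.27; adjusted p = 0.9999, limma; exact permutation p = 0.0286). *Mki67*, a marker of dividing cells, was at 0.55 (SE 0.35) and *Stmn1*, also high in dividing cells, at -0.25. *Rpl41* and *Rpl28*, ribosomal proteins, were at 0.31 and -0.23. Because the blood was drawn from the heart, heart muscle genes were read as well: 4 of 17 were tested, with a median of 0.10, and the atrial peptide *Nppa* was not detected.

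Of 32 genes that the study itself names for LPS or G2, 11 were tested here and 0 passed the unadjusted limit on the G2 diet (limma). The study chose these genes on arrays that included the 4 LPS-G2 arrays but not C-G2, so the list is not independent evidence of any direction. Its median fold change was 0.00 on G2. *Serp2*, a stress-associated protein of the endoplasmic reticulum, had values of -1.50, -0.56, 0.30 and -0.68 in C-G2 and of -0.37, -0.29, 0.47 and 0.68 in LPS-G2. C-G2 replicate 3 lay among the LPS-G2 arrays and the other 3 controls lay below them. The fold change was 0.74 (SE 0.47; adjusted p = 0.9999, limma), and a second probe, above background on 3 of the 4 C-G2 arrays, gave 1.51 (SE 0.86). *Ube2c*, a ubiquitin-conjugating enzyme of mitosis, was at 0.05 and -0.04 on LPS-G2 replicates 1 and 2 and at -1.85 and -2.04 on replicates 3 and 4, with a fold change of -0.63 (SE 0.54). *Dmtn*, an actin-bundling protein of red cells, was at 0.52, *Spart*, a protein of lipid droplets and endosomes, at -0.31, *Hmcn2* at 0.17, *Gas7* at 0.12 and *Phf20l1* at -0.10.

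The granzymes, proteases of cytotoxic T and natural killer cells, were on the same list, and none of them passed the unadjusted limit on G2. *Gzma* had values of 0.28, 0.28, -0.82 and 0.42 in C-G2 and of -0.05, 0.47, 0.23 and -0.46 in LPS-G2, and its fold change was 0.00 (95% confidence interval -0.70 to 0.71). *Gzmb* had values of 0.01, 0.05, -0.79 and 0.60 in C-G2 and of -0.30, 0.15, -0.95 and -0.73 in LPS-G2, with a fold change of -0.43 (-1.39 to 0.53). A second probe of *Gzmb* gave -0.08. The fold changes of *Gzmc*, *Gzmk* and of *Prf1*, the pore-forming perforin, were -0.42, 0.02 and -0.29. Granzyme genes are similar in sequence, and cross-hybridization was not tested. Over 15 tested genes of cytotoxic T and natural killer cells the median was 0.00, and 0 passed the unadjusted limit (limma).

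Whether the LPS response on G2 differed from that on the other diets was tested as a difference of differences in the same fit. Against the control diet, 0 of 9434 probes passed an adjusted p of 0.05 (limma, smallest adjusted p 0.635), and 546 probes (5.79%) passed the unadjusted limit. Against G1, 0 passed (limma), and 93 probes (0.986%) passed the unadjusted limit. Where nothing differs, that limit passes a share of 0.05 on average, so the share against the control diet was near it and that against G1 below it. In the same fit the LPS response itself passed the unadjusted limit for 11.9% of the probes on the control diet and for 2.98% on G1, with 0 adjusted calls on either (limma). The label fields of LPS-G0 replicates 3 and 4 conflict, with LPS in the title and control in the induction field. The interquartile range of the log2 ratios was 0.94 on C-G0 replicate 1 and 1.06 on C-G1 replicate 2, against 0.30 to 0.65 on the other 22 arrays. Differences from the control diet are therefore given also without LPS-G0 replicates 3 and 4 and without C-G0 replicate 1, and differences from G1 without C-G1 replicate 2.

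The granzymes had positive fold changes on the control diet and values near or below 0 on G2. The study named these granzymes among the genes higher in LPS-G0 than in C-G0, from the same arrays. Their positive response on the control diet, and with it the sign of the difference from G2, is therefore not independent evidence. On the control diet, *Gzma* was at -1.72, -0.03, -0.42 and -0.67 in C-G0 and at 0.82, 0.47, 0.15 and 0.68 in LPS-G0, with every LPS array above every control. Its fold change was 1.24 on the control diet, 0.10 on G1 and 0.00 on G2, and the difference of G2 from the control diet was -1.23 (95% confidence interval -2.23 to -0.23; unadjusted p = 0.0178, adjusted p = 0.807, limma). *Gzmb*, *Gzmc* and *Gzmk* gave differences of -1.78, -1.72 and -1.07, and *Prf1* -1.08, each at an adjusted p of 0.807 (limma). With LPS-G0 replicates 3 and 4 left out, the differences were -1.35 for *Gzma*, -1.85 for *Gzmb*, -1.80 for *Gzmc*, -1.27 for *Gzmk* and -1.37 for *Prf1*. Without C-G0 replicate 1, which held the lowest *Gzma* value, they were -0.90, -1.28, -1.54, -0.82 and -0.73. The unadjusted p then rose to 0.056 for *Gzma* and 0.0636 for *Prf1* (limma). With all arrays, a second probe of *Gzmb* was at 1.05 on the control diet and -0.08 on G2, a smaller difference of -1.14.

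*Fcgr3a*, lower with LPS on G2, was at -2.40, -0.47, -0.90 and -0.82 in C-G0 and at -0.19, -0.08, -0.44 and 0.49 in LPS-G0, higher on every LPS array. The difference of its responses was -1.94 (95% confidence interval -2.97 to -0.90; adjusted p = 0.807, limma), -1.86 without LPS-G0 replicates 3 and 4 and -1.52 without C-G0 replicate 1. *Isg15* was at 1.01 on the control diet and -1.10 on G2, a difference of -2.12 (adjusted p = 0.807, limma) that was -1.37 without C-G2 replicate 1. Its control-diet response was 0.56 without C-G0 replicate 1 and 1.53 without LPS-G0 replicates 3 and 4, and the differences were then -1.67 (unadjusted p = 0.0541, limma) and -2.63.

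The smallest p of this comparison belonged to *Rmnd5a*, a subunit of a ubiquitin ligase complex. It had values of -0.55, 0.02, -0.68 and -0.70 in C-G2 and of 0.05, -0.11, 0.58 and -0.04 in LPS-G2, 1 control lying among the LPS arrays. Its fold change was 0.60 (SE 0.24) on G2, -1.05 on the control diet and -0.22 on G1, and the difference of 1.65 had an unadjusted p of 6.73e-05 and an adjusted p of 0.635 (limma). It was 1.56 without LPS-G0 replicates 3 and 4 and 1.53 without C-G0 replicate 1. Without C-G0 replicate 4 it was 1.92 and the adjusted p was 0.0162 (limma). No other of the 16 fits that each left out 1 array gave an adjusted call in this comparison. The phosphatase *Ptp4a2* had values of -0.60, -0.20, -0.33 and -0.20 in C-G2 and of -0.17, 0.04, 0.50 and 0.19 in LPS-G2. The groups did not overlap, the fold change was 0.48 (SE 0.17; adjusted p = 0.9999, limma; exact permutation p = 0.0286), and the response on the control diet was -0.59, a difference of 1.07 (0.95 without LPS-G0 replicates 3 and 4, 1.09 without C-G0 replicate 1). The serine protease *Prss39* had the smallest unadjusted p of all probes on G2 (0.78, SE 0.24; unadjusted p = 0.00396, adjusted p = 0.9999, limma) and was at -0.57 on the control diet, a difference of 1.35 (1.64 without LPS-G0 replicates 3 and 4, 1.43 without C-G0 replicate 1). *Dnajc13*, a co-chaperone of endosomes, was at 0.50 on G2 and -0.72 on the control diet, a difference of 1.22 (1.21 and 1.35 without the same arrays).

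Against G1, *Slc27a2* gave a difference of 3.40 (adjusted p = 0.9997, limma), from 2.19 on G2, where 3 of the 4 controls were not well above background, and -1.21 on G1. On G1 its values were 0.25, 0.96, -3.25 and 0.17 without LPS and 0.38, -2.92, -2.33 and -1.84 with LPS. Low and high values thus occurred in both groups on G1, and the difference was 2.92 without C-G1 replicate 2. *Serp2* gave 2.22 (2.53 without C-G1 replicate 2), from 0.74 on G2 and -1.48 on G1, and it was at 1.81 on the control diet. *Lgals2*, a galectin, gave 1.54, *Gramd1a*, a sterol transfer protein, 0.96 and RGD1565183 -0.77, each at an adjusted p of 0.9997 (limma). Without C-G1 replicate 2 they were 1.51, 0.96 and -0.78.

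**Figure D4:**
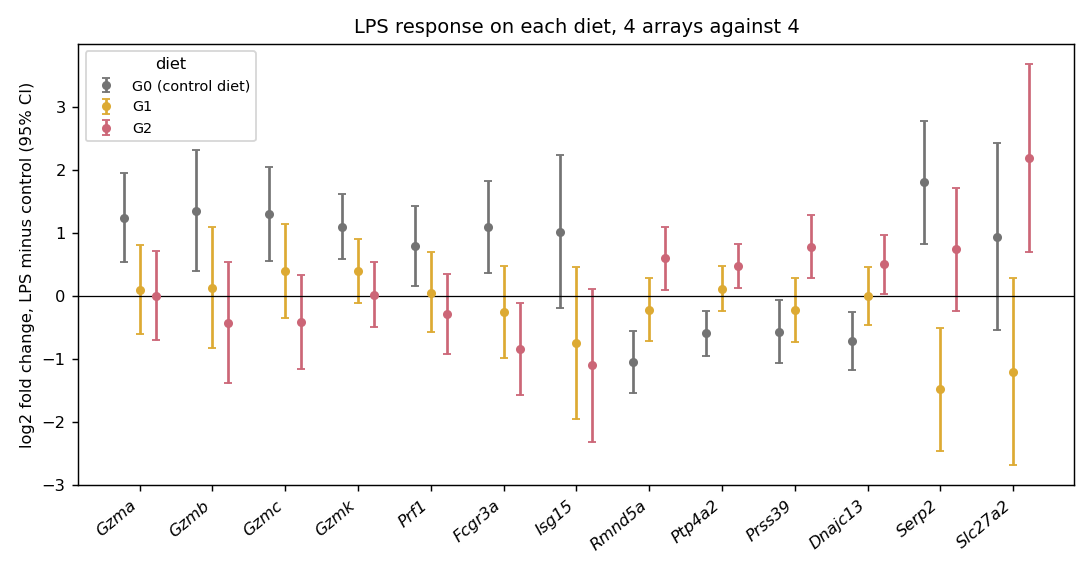
The log2 fold change with LPS and its 95% confidence interval (limma, 4 arrays against 4) for 13 genes on the control diet (gray), G1 (yellow) and G2 (red). The granzymes and *Prf1* lie above 0 on the control diet, from 0.79 to 1.35, and between -0.43 and 0.02 on G2, and with all 24 arrays no difference between diets passed an adjusted p of 0.05.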

How the data were processed

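Blood RNA of 24 rats was hybridized on 24 Agilent two-color arrays (3 slides of 8), and the 8 arrays of C-G2 and LPS-G2 were compared. Per the file headers, intensity values were background-subtracted and Lowess dye-normalized by Feature Extraction 10.10.1.1 (the submitters' notes name 10.7.3.1), and the deposited log10 ratios are Cy5 over Cy3. Here the sign was turned and the ratio expressed in log2. Control spots and outlier spots were left out and spots of a probe averaged. All 24 arrays were fitted with limma 3.58.1 (R 4.3.3) as 6 groups of 4, with Benjamini-Hochberg adjustment over 9434 probes. Calls needed an adjusted p under 0.05 and a 2-fold difference. Exact permutation tests used 70 arrangements. Gene names came from the probe annotation and RefSeq accessions, and probe positions are on rn4.

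Named genes were the smallest p values past the unadjusted limit with 2-fold, the 2 smallest per gene list, the genes the study names, and the 5 smallest per difference between diets. A gene was given by its brightest tested probe. Some genes that met this rule are not reported here. Genes named outside this rule were chosen for their role or after their values were seen. The groups, gene lists and tests were chosen with earlier results of these data known. The scripts were tested on simulated data. Alternatives covered the arrays fitted, slide and replicate blocks, intensity trend, array weights, background correction, normalization, channel, filter, outlier spots, the ANOVA and Tukey's HSD that the methods name, and leaving out arrays.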

Additional observations from a re-analysis of the deposited data

Results flagged for a closer look

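In each group of 4 arrays, a value was picked out when its gap to the nearest of the others exceeded the critical share of the group's range in Dixon's test at the 95% level. Of 194 groups of values examined (138 for single genes, 56 for list means), 14 held such an array. Chance alone gives about 1 in 20.

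Among the C-G2 arrays, replicate 4 was low for the macrophage marker *Adgre1* (0.10, the others 0.30 to 0.33). Replicate 3 was low for *Gzma* (-0.82, the others 0.28 to 0.42), and replicate 1 was low for *Il7r* (-0.91, the others -0.47 to -0.40). Replicate 2 was high for the oxidase subunit *Ncf1* (0.18, the others -0.49 to -0.41) and the proteasome subunit *Psma6* (0.02, the others -0.27 to -0.23). It was low for *Sptb* (-0.81, the others -0.02 to 0.11) and for the mean of the prostaglandin and leukotriene genes (0.00, the others 0.14 to 0.15).

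Among the LPS-G2 arrays, replicate 1 was low for *Ifi27* (-3.66, the others -0.47 to 0.14), and replicate 2 was high for the co-chaperone *Bag3* (0.22, the others -0.02 to -0.01). Replicate 3 was low for *Dnajb1*, another co-chaperone (-0.63, the others 0.01 to 0.13), for *Nr4a1* (-0.55, the others -0.03 to 0.03) and for *Stmn1* (-0.95, the others -0.22 to -0.07). It was also low for the mean of the autophagy genes (-0.03, the others 0.08 to 0.10) and of the complement genes (-0.09, the others 0.18 to 0.23).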

How the results depend on the processing

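The count of adjusted calls between LPS-G2 and C-G2 was 0 under every alternative run (limma, and the ANOVA and Tukey's HSD that the methods name). The 3 probes past the unadjusted limit with 2-fold became 7 with the 8 arrays of the comparison alone, 9 with array weights, 5 from the Cy3 channel alone, 0 after normexp and loess, 0 with Tukey's test and 261 of 30249 probes without the filter. Leaving out each array in turn gave 5 to 13, the most without C-G2 replicate 2. At any fold the 95 probes became 57 (Cy3 alone) to 285 (array weights), 1 with Tukey's test, 777 without the filter, and 69 to 222 when leaving out an array. With a replicate block the counts were 10 and 200. Same-numbered arrays correlated at 0.06 to 0.23 in their deviations from the group means and only 5 of 8 correlated best with their own number, so the numbers were not taken as pairs. The difference of the LPS response between G2 and the control diet gave 0 adjusted calls when an array was left out, or 1 (*Rmnd5a*) without C-G0 replicate 4. Its 546 unadjusted probes became 333 to 1133, the most without C-G0 replicate 1, and the 93 against G1 became 64 to 233. Array weights gave 1759 and 302, the Cy3 channel alone 243 and 49, and all probes without the filter 1210 and 759. Of 1464 single-gene values under alternatives, 8 changed sign, all of *Gzma* or *Gzmk* near 0. Of 442 list medians, 4 moved by more than the spread. The causes were not tested.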

Other observations

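Genes outside the lists, chosen after their values were seen, reached 2-fold through few arrays. *Ctrb1*, which encodes the pancreatic protease precursor chymotrypsinogen, was at -4.82, -5.02, 0.34 and 0.26 in C-G2 and at -4.61, 1.74, 0.32 and 0.67 in LPS-G2, so 3 of the 8 arrays were far below the rest. C-G2 replicate 4 was at -3.18 and -2.48 for both probes of *Tmcc2*, -2.75 for *Xpo7*, a nuclear transport receptor, and -3.51 for *Tdrd12*. The other 7 arrays lay between -0.25 and 0.88 for *Tmcc2*, between -0.18 and 0.74 for *Xpo7* and between -0.45 and 0.48 for *Tdrd12*. A probe of *Chmp4bl1* was at 2.35 and 2.02 on LPS-G2 replicates 2 and 4 and between -0.32 and 0.54 on the other 6 arrays. On the same arrays *Plekhb1* was at -2.23 and -2.80, against -0.30 to 1.22 on the others.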
